A study of Homo sapiens with 4 samples.

Results

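The genes described here are 39 genes of the G1/S transition and of DNA replication, out of 26484 gene symbols in the deposited table. They were taken by name: subunits of the origin-licensing machinery, of the replicative helicase and of the replisome, enzymes of deoxynucleotide synthesis, and the E2F and cyclin E genes that drive entry into S phase. Expression was measured by RNA sequencing of polyadenylated RNA in A375, a human melanoma cell line with wild-type p53, grown in DMEM. The groups were 2 libraries of the parental line and 2 libraries of a p53-/- derivative made with CRISPR-Cas9. No other treatment or time point was part of the design.

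Before S phase, the origin recognition complex, CDC6 and CDT1 load the MCM2 to MCM7 helicase onto origins, which is called licensing. Cyclin E with CDK2 then promotes firing, in which CDC45 and the GINS complex join the helicase and the polymerases, the sliding clamp and its loader assemble behind it. E2F transcription factors turn these genes on as cells pass from G1 into S phase, and the retinoblastoma family and the DREAM complex keep them off in resting cells. p53 is known to act on this circuit through CDKN1A, which encodes the CDK inhibitor p21 and so favours the repressed state. The comparison therefore asks how transcripts of the replication machinery differ between A375 cells with and without p53.

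In the table the knockout libraries are numbered 2 and 8, which does not map them onto the labelled replicates, and those numbers are used here. Whether each library stands for its own culture or clone is not in the labels, and p-values here measure the spread between libraries, which may be technical. An edited line that kept p53 was not part of the design, so p53 loss and the editing and selection of cells cannot be told apart. Values are normalised read counts, that is reads divided by 1 size factor per library, and they compare libraries within a gene. Whole reads recovered from these values totalled 29230554 for parental library 1, 36331894 for parental library 2, 30334054 for knockout library 2 and 32160978 for knockout library 8. Each of the 39 genes had at least 323 reads in every library and all 39 passed the filter on low values. SOX10, a marker of the melanocytic lineage, was between 25662 and 30033 in the 4 libraries, whereas MLANA and TYR, pigmentation genes of that lineage, were at 0 in all of them. MITF, its master regulator, was at 1645 and 1562 in the parental and 849 and 1050 in the knockout libraries. Markers of other cell types were mixed: HBB and CDH1 were at 0 and COL3A1 was at most 1.10, while KRT18 (5569 to 6548) and KRT8 (926 to 1208) of the epithelial list were expressed. Of the fibroblast list, PDGFRB was at 764 to 1166, COL1A1 at 47.4 to 73.7 and LUM at 31.6 to 165. LYZ of the blood list was at 80.0 and 113 in the parental and 114 and 263 in the knockout libraries. The part of other cell types in the results was not tested. The knockout pair differed more than the parental pair over all genes, with a chi-square per degree of freedom of 65.2 against 5.81.

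Promoter sequence shows the elements through which such genes are known to be controlled. RefSeq promoters on GRCh38.p14, reaching from 250 bases before to 50 bases after the start, matched 35 of the 39 genes. The E2F motif, searched as TTTCGCGC or TTTGGCGC on either strand, was present in 12 of these 35 promoters (34.3%). The share was 1.18% of all 27305 promoters and 1.93% of the 11030 promoters of tested genes. Many of the genes were listed because they are E2F targets, so this share is a description of the list. The pentamer CCAAT, a binding element of NF-Y searched on both strands, was found in 18 of 35 (51.4%), against 35.7% of all promoters and 36.8% of those of tested genes. The cell-cycle homology element TTTGAA, through which DREAM is known to bind mitotic genes, was found in 1 of 35 (2.86%, RRM1), against 15.4% of all promoters and 9.91% of those of tested genes. The 180 bases before the start are printed 5′ to 3′ on the strand of the gene for the most abundant member with an E2F motif in each of 3 roles: the helicase subunit MCM7 (chr7:100101398-100101577, minus strand), the leading-strand polymerase POLE (chr12:132687343-132687522, minus strand) and the factor E2F1 (chr20:33686386-33686565, minus strand). Capitals mark the E2F motif, which reads in reverse complement in POLE.
MCM7: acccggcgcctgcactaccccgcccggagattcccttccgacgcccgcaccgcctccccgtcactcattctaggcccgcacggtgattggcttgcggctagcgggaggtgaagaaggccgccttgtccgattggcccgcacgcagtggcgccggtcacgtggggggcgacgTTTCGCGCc
POLE: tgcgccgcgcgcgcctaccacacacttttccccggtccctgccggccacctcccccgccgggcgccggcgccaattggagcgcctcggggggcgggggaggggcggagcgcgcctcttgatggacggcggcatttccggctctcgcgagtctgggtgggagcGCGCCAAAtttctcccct
E2F1: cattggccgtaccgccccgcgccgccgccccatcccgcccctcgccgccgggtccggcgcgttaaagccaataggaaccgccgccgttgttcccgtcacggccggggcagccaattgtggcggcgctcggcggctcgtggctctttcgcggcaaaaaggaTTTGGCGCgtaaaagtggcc

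Another pair of promoters was chosen after the values were seen, to set a gene whose groups overlapped beside a gene whose groups did not. MCM6 (chr2:135876444-135876623, minus strand) holds the run TTTGGCGCGAAA at 2 places, each of which reads as an E2F motif on both strands and so gives 2 overlapping matches. RRM2 (chr2:10122559-10122738, plus strand) holds no E2F motif of this spelling in the window and has 3 copies of CCAAT, shown in capitals. The MCM6 promoter also holds CCAAT at 2 places, which are not capitalised.
MCM6: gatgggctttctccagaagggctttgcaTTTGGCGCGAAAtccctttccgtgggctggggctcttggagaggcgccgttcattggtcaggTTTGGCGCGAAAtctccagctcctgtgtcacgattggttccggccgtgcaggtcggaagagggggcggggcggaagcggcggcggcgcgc
RRM2: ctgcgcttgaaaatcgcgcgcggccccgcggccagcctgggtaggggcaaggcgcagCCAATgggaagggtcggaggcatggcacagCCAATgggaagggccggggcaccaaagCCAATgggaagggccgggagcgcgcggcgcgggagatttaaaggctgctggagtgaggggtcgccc

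As a list, the replication genes lay above the parental level in knockout library 2 and at or slightly below it in knockout library 8. In knockout library 2, 36 of the 39 were above the parental mean, with a median log2 difference of 0.27. In knockout library 8, 27 were below it, with a median of -0.07. The same medians over all 15431 genes tested were 0.00 and 0.00. The size factors set those medians close to 0 in advance, and the all-gene shares in this paragraph follow from that. The parental pair also differed in an ordered way: 38 of 39 genes (97.4%) were higher in parental library 2 than in parental library 1, against 50.0% of all genes, with a median difference of 0.17. PRIM2, at 709 in both, was the exception. Knockout library 2 was above knockout library 8 for 35 of 39 (89.7%), against 49.5% of all genes, and the median gap was 0.32. The exceptions were GINS3, RFC4, POLA1 and CCNE2. In bulk RNA, more cells in S phase and more transcript per cell cannot be told apart.

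**Figure D1:**
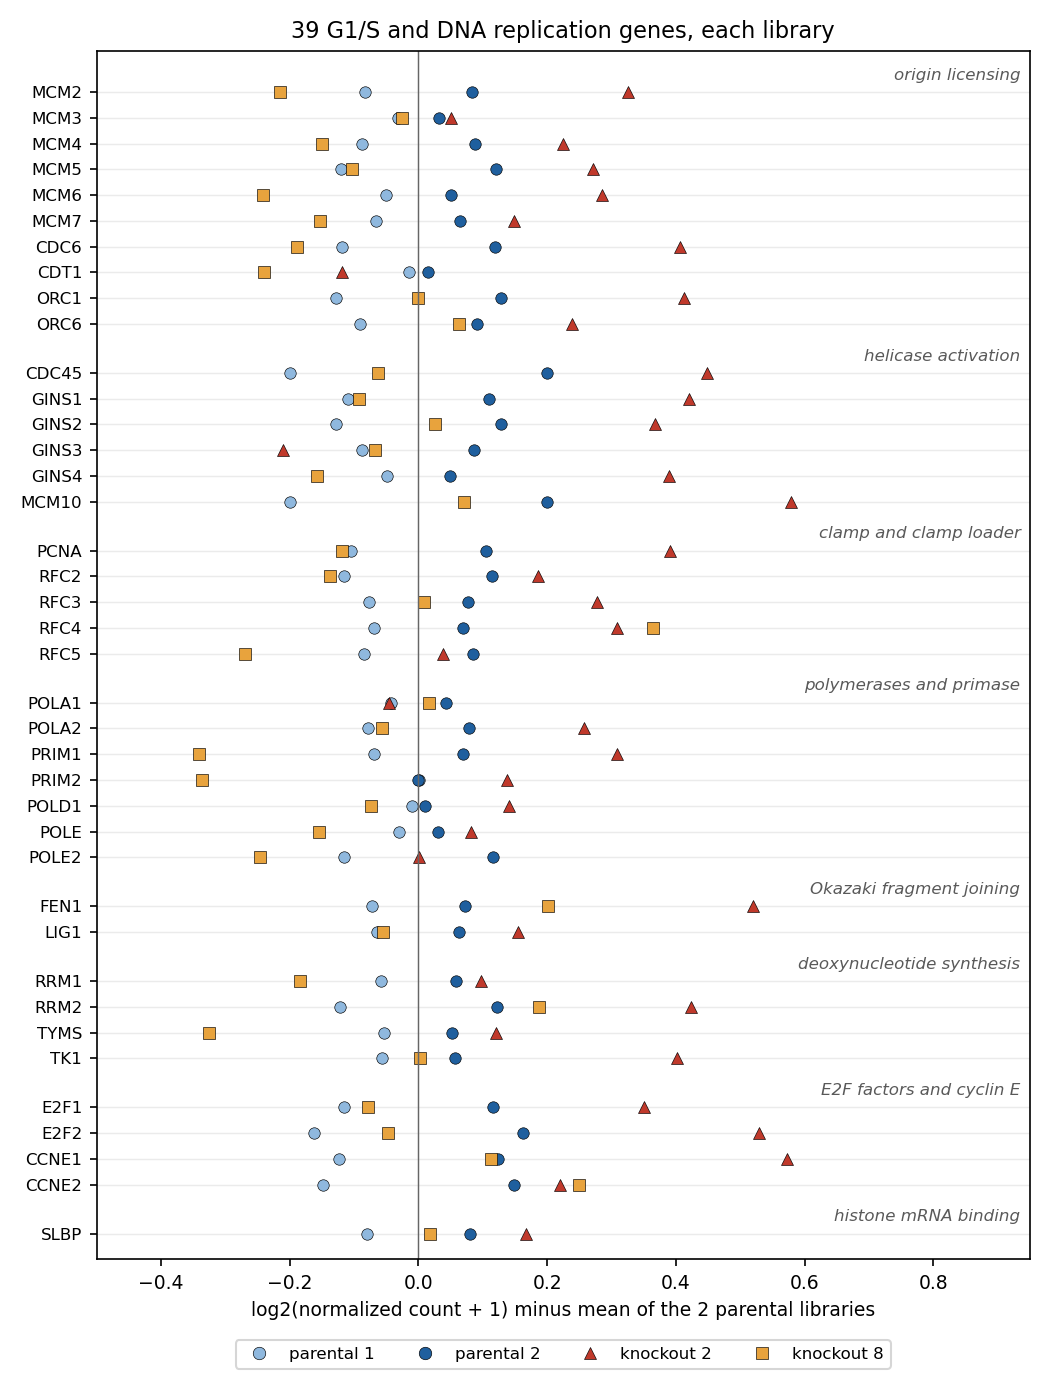
Log2 ratio of each of the 39 genes to its parental mean in the 4 libraries, with genes in rows grouped by role and 1 point for each library. Knockout library 2 is the highest library for 32 genes, and knockout library 8 lies between the parental libraries for 18 and below both for 17. Over all 15431 genes tested, the same 3 counts were 5203, 2924 and 6298.

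Measured against the parental pair, knockout library 2 exceeded the parental mean by more than the parental libraries differed from each other for 30 of 39 genes, against 35.9% of all genes. It was below the mean by more than that gap for 2, CDT1 and GINS3, against 37.6%. Knockout library 8 was above the mean by more than the parental gap for 2 genes, RFC4 and FEN1, against 32.3%, and below it for 13, against 33.2%, a share (33.3%) that does not stand apart from the background. At a fixed size of 1.25-fold, 15 genes were up in knockout library 2 (16.9% of all genes) and 0 were down (19.3%). In knockout library 8, 1 gene, RFC4, was up by that size (13.6%) and 3, PRIM1, PRIM2 and TYMS, were down (13.7%).

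Tested over both knockout libraries, none of the 39 genes was called. With limma on log2 normalised counts and Benjamini-Hochberg adjustment, 0 of the 39 were called (0.0% of all genes), and the smallest adjusted p was 0.324, for RFC4. The edgeR quasi-likelihood test also called 0 (0.0%), and DESeq2 called 0 of 39 while calling 398 of 16330 genes (2.44%), with a smallest adjusted p of 0.361 among the 39. At an unadjusted limma p under 0.05, 2 genes were higher and 0 lower, against 12.0% of all genes in either direction. Both knockout libraries were above both parental libraries for 4 genes (22.8% of all genes) and below both for 1 (23.7%). Groups thus did not overlap for 5 of 39 (12.8%), against 46.4% of all genes. The median log2 difference between groups was 0.09, from -0.18 for CDT1 to 0.36 for FEN1. The gap within the parental pair exceeded the group difference for 30 of the 39 genes, and the gap within the knockout pair exceeded it for 34. Over all 15431 genes, the parental gap exceeded the group difference for 5283 and the knockout gap for 9551.

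**Figure D2:**
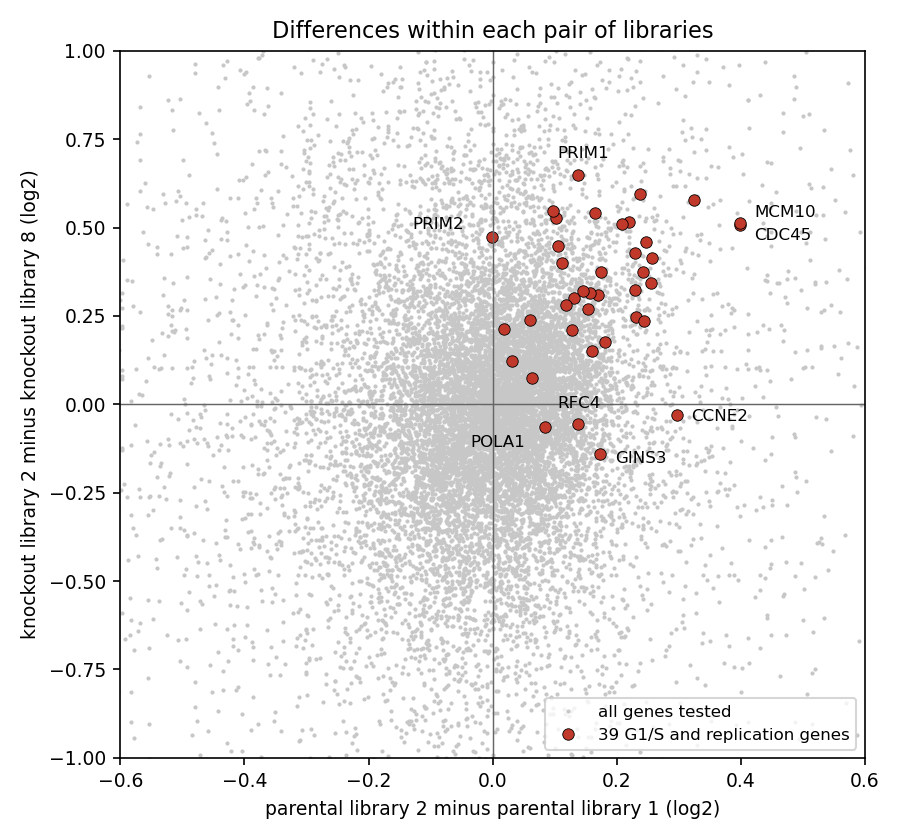
Log2 difference within the parental pair (library 2 minus library 1, horizontal) and within the knockout pair (library 2 minus library 8, vertical), with the 39 genes in red over all genes tested in grey. Of the 39 genes, 34 lie where both differences have the same sign, against 8394 of all 15431 genes tested. Library numbers do not link the pairs, so that sign depends on the order of subtraction. Outside the limits of the plot (0.6 and 1.0 on the log2 scale) lie 1674 genes.

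Which genes were called changed with the knockout library left out. Without knockout library 8, limma called 21 of the 39 genes higher and 0 lower, against 32.6% of all genes. Without knockout library 2 it called 1 higher, RFC4, and 5 lower, MCM6, CDT1, PRIM1, PRIM2 and TYMS, against 18.8%. MCM6 and PRIM1 were thus called in opposite directions by the 2 settings. In these fits the remaining knockout library is assumed to vary like the parental pair. The all-gene shares count calls in either direction. Counted that way, the called share of the 39 genes was above that of all genes without knockout library 8. Without knockout library 2 it was below that of all genes, so the genes named there do not set the list apart from the background.

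The 10 licensing genes had medians of 0.25 in knockout library 2 and -0.15 in knockout library 8. MCM2 to MCM7, the 6 subunits of the helicase ring, were all above the parental mean in knockout library 2 (median log2 difference 0.25) and all below it in knockout library 8 (-0.15). MCM2 had 6020 and 6751 normalised counts in the parental pair, while knockout library 2 was at 7993 and knockout library 8 at 5493. Knockout library 2 was the highest and knockout library 8 the lowest, so the groups overlapped, and the group difference was 0.06 ± 0.20 (SE, log2; limma adjusted p = 0.927). MCM6 had 2943 and 3158 in the parental and 3714 and 2578 in the knockout libraries, with the same order. MCM3 was the steadiest subunit, at 5365 and 5608 in the parental and 5681 and 5390 in the knockout libraries. The most abundant subunit by count, MCM7, had 12689 and 13891 against 14708 and 11944, a group difference of -0.00 ± 0.13 (limma adjusted p = 0.995). MCM4 and MCM5 had knockout library 2 highest at 9544 and 3639, and knockout library 8 at -0.15 and -0.10 log2 from the parental mean.

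Among the loading factors, CDC6, the ATPase that helps to load the helicase, had 2458 and 2899 in the parental libraries and 3540 and 2343 in knockout libraries 2 and 8. The knockout values enclosed the parental ones, and the group difference of 0.11 ± 0.22 was smaller than the 0.24 between the parental libraries. CDT1, its loading partner, had the opposite sign. It had 2055 and 2099 in the parental libraries, and 1913 and 1758 in knockout libraries 2 and 8. CDT1 (chr16:88803213-88809258 on GRCh38) was the only one of the 39 genes with both knockout libraries below both parental libraries, with a group difference of -0.18 ± 0.09 (limma adjusted p = 0.494). ORC1, the largest subunit of the origin recognition complex, had 1051 and 1257 in the parental and 1531 and 1150 in the knockout libraries. ORC6, its smallest subunit, had 1233 and 1398 against 1549 and 1371. For both ORC genes knockout library 2 was highest and knockout library 8 lay between the parental libraries.

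Genes of helicase activation had the second-largest median in knockout library 2, 0.41 over 6 genes, beside -0.07 in knockout library 8 and a parental gap of 0.24. MCM10, which is needed for the assembled helicase to fire, had 1100 and 1450 in the parental libraries and 1886 and 1326 in knockout libraries 2 and 8. Its value in knockout library 2 was 1.48 times the parental mean, yet its parental libraries differed by 1.32-fold, and the group difference of 0.32 ± 0.23 had a limma adjusted p of 0.610. CDC45, the helicase cofactor, had 801 and 1057 against 1257 and 881. In both genes knockout library 8 lay between the parental values.

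Subunits of GINS, which completes the active helicase, were not uniform. GINS1 had 1464 and 1704 in the parental and 2115 and 1481 in the knockout libraries. GINS2, at 896 and 1069 against 1263 and 996, had the same order. For GINS1 and GINS2 knockout library 2 was highest and knockout library 8 lay between the parental libraries. GINS4, at 1055 and 1129 against 1429 and 978, had knockout library 8 lowest. GINS3 had 655 and 739 in the parental pair, while knockout library 2 was at 601 and knockout library 8 at 663, so that its lowest value was in the library where the other GINS genes were highest. The difference between GINS3 and the other subunits was not tested.

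The sliding clamp PCNA, which tethers polymerases to DNA, had 5386 and 6225 in the parental libraries and 7591 and 5335 in knockout libraries 2 and 8. Knockout library 2 was highest and knockout library 8 just under the lowest parental value, and the group difference was 0.14 ± 0.19 (limma adjusted p = 0.800). Of the loader subunits RFC2 to RFC5, RFC4 departed from the rest. RFC4 (chr3:186789880-186807058, minus strand) had 1153 and 1269 in the parental libraries and 1499 and 1559 in knockout libraries 2 and 8. Both knockout values were above both parental ones and lay closer to each other than the parental values did. The group difference was 0.34 ± 0.09, with an unadjusted limma p of 0.0184 and an adjusted p of 0.324. RFC2, RFC3 and RFC5, subunits of the same pentamer, were at 2082, 3432 and 1279 in knockout library 8 against 2606, 4135 and 1585 in knockout library 2. Their knockout gaps of 0.32, 0.27 and 0.31 contrast in sign with the -0.06 of RFC4; that contrast between genes was not tested.

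Polymerase and primase genes had the smallest median of the roles with at least 4 genes in knockout library 2, 0.14 over 7 genes and 0 of them up by 1.25-fold. POLA1, the catalytic subunit of the polymerase that starts new strands, had 2460 and 2610 in the parental and 2454 and 2564 in the knockout libraries. POLD1, the catalytic subunit of the lagging-strand polymerase, had 3506 and 3552 against 3890 and 3353. POLE had 3930 and 4096 against 4246 and 3603. POLA1 kept all 4 libraries close together, with a knockout gap of -0.06. POLD1 and POLE had knockout library 2 highest and knockout library 8 lowest, with knockout gaps of 0.21 and 0.24. Group differences of these 3 catalytic genes were -0.01 ± 0.08, 0.03 ± 0.10 and -0.04 ± 0.11. POLE2, the accessory subunit of POLE and the weakest of the role by count, had 354 and 416 against 384 and 323, and POLA2, the accessory subunit of POLA1, had 1682 and 1876 against 2124 and 1708.

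The primase genes, which make the RNA primers, diverged between the knockout libraries. PRIM1, the catalytic primase subunit, had 1238 and 1362 in the parental pair, while knockout library 2 was at 1608 and knockout library 8 at 1025. That 1.57-fold difference between the knockout libraries was the widest among the 39 genes, and the parental values lay inside it. PRIM2, the regulatory subunit, had 709 and 709 in the parental libraries and 780 and 562 in the knockout libraries. The group differences of PRIM1 and PRIM2 were -0.02 ± 0.23 and -0.10 ± 0.18, smaller than their SE.

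On the lagging strand, FEN1, the nuclease that trims Okazaki fragments, had 4703 and 5201 in the parental libraries and 7094 and 5686 in knockout libraries 2 and 8. Both knockout libraries were above both parental ones. FEN1 (chr11:61792637-61797244) had the largest group difference of the 39 genes, 0.36 ± 0.14, with an unadjusted limma p of 0.0486 and an adjusted p of 0.411. LIG1, the ligase that seals the trimmed fragments, had 1785 and 1950 against 2077 and 1796, with overlapping groups and a difference of 0.05 ± 0.11.

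In deoxynucleotide synthesis the subunits of ribonucleotide reductase, which makes deoxynucleotides from ribonucleotides, differed from each other. RRM2, the small subunit made in S phase, had 7305 and 8656 in the parental libraries and 10663 and 9055 in knockout libraries 2 and 8. Both knockout values were above both parental ones, and the difference was 0.31 ± 0.13 (limma adjusted p = 0.462). RRM1, the large subunit, had 4682 and 5080 against 5217 and 4294, with knockout library 8 lowest. RRM2B, the p53-inducible small subunit and not among the 39 genes, had 2207 and 1978 in the parental libraries and 1425 and 1555 in the knockout libraries. It was lower in both knockout libraries, with a log2 difference of -0.49 ± 0.10 and an adjusted p of 0.261 by limma and 0.0548 by DESeq2, so that neither test called it.

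Both thymidylate genes were highest in knockout library 2. TYMS, thymidylate synthase, had 4626 and 4977 in the parental pair, while knockout library 2 was at 5219 and knockout library 8 at 3829. TK1, the salvage kinase, had 2794 and 3020 against 3837 and 2910, so knockout library 8 lay within the parental range for TK1 and below it for TYMS.

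E2F and cyclin E genes had the largest median of the roles in knockout library 2, 0.44 over 4 genes. Their median was 0.03 in knockout library 8, and their median parental gap was 0.27. E2F1, an activator of S-phase genes, had 1679 and 1969 in the parental and 2318 and 1722 in the knockout libraries. E2F2, a related activator, had 473 and 592 against 764 and 512. In both, knockout library 2 was highest and knockout library 8 lay between the parental libraries. CCNE1, a cyclin partner of CDK2, had 600 and 712 against 972 and 707; its knockout library 2 was 1.48 times the parental mean. CCNE2, its paralog, had 728 and 895 against 940 and 960, with both knockout values above both parental ones. The parental libraries differed by 0.30 log2 for CCNE2, more than knockout library 2 (0.22) or 8 (0.25) differed from the parental mean. The group differences were 0.34 ± 0.20 for CCNE1 and 0.23 ± 0.13 for CCNE2, with limma adjusted p of 0.547 and 0.546. SLBP, which binds the stem-loop of replication-dependent histone mRNAs, had 2693 and 3010 against 3198 and 2883, and a difference of 0.09 ± 0.10.

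CDKN1A, the p21 gene upstream of this circuit, followed the direction of the replication genes across the knockout pair. It had 3561 and 3889 in the parental pair, while knockout library 2 was at 4898 and knockout library 8 at 2603. The library with more CDKN1A was thus also the library with more replication transcripts, and the group difference was -0.06 ± 0.31 (limma adjusted p = 0.951). Its part in the values of the replication genes was not tested.

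The order of the libraries repeated from gene to gene. For 16 of the 39 genes (41.0%) the order from low to high was parental library 1, knockout library 8, parental library 2, knockout library 2, an order that 4.87% of all genes had. For another 13 (33.3%) knockout library 8 was lowest and the other libraries kept that order, against 6.58% of all genes. As a share of all reads, the 39 genes took 0.342% (95% exact Clopper-Pearson interval 0.340 to 0.344) and 0.383% (0.381 to 0.385) in the parental pair, and 0.431% (0.429 to 0.433) and 0.349% (0.347 to 0.351) in knockout libraries 2 and 8. These intervals reflect counting error alone, because the reads carry no molecular identifiers and can repeat a molecule.

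Genes with and without the E2F motif are set side by side here, and differences between them were not tested. The 12 genes with a motif had medians of 0.27 in knockout library 2 and -0.12 in knockout library 8, with 1 of 12 (8.33%) above the parental mean in knockout library 8 and 0 genes whose groups did not overlap. The 23 with a promoter but no such motif had 0.28 and -0.05. Of these 23, 10 (43.5%) were above the parental mean in knockout library 8, against 49.8% of all genes. Groups did not overlap for 4 of these 23 (17.4%), RRM2 among them, against 46.4% of all genes. MCM6, with its 2 runs and 2 CCAAT elements, was at 0.28 and -0.24, and RRM2, with 3 CCAAT elements, at 0.42 and 0.19. CCAAT did not set these genes apart. RFC4, FEN1 and CDT1, whose groups also did not overlap, had 0 CCAAT elements, and MCM7 and PCNA, whose groups overlapped, had 3 each. These are descriptions of promoter sequences, and binding of any factor was not measured.

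Per kilobase of transcript, the clamp PCNA and the helicase subunit MCM7 had the highest levels of the 39 genes. On the RPKM scale (reads per kilobase scaled to library size, with GENCODE 29 principal transcript lengths), the mean level over the 4 libraries was 142 for PCNA and 141 for MCM7. PCNA ranged from 124 in parental library 1 to 175 in knockout library 2, and MCM7 from 129 in knockout library 8 to 156 in knockout library 2, so the order of these neighbours does not exceed their spread. TYMS (88.1), RRM2 (81.7) and FEN1 (77.7) followed, with ranges that overlap one another. The lowest levels were those of CCNE2 (8.32), POLE2 (6.53) and E2F2 (3.54). E2F2, from 2.84 to 4.61, did not overlap POLE2, from 5.80 to 7.35. Subunits of 1 complex differed in level: MCM2 to MCM7 had means of 56.9, 54.0, 62.5, 27.8, 26.1 and 141.

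**Figure D3:**
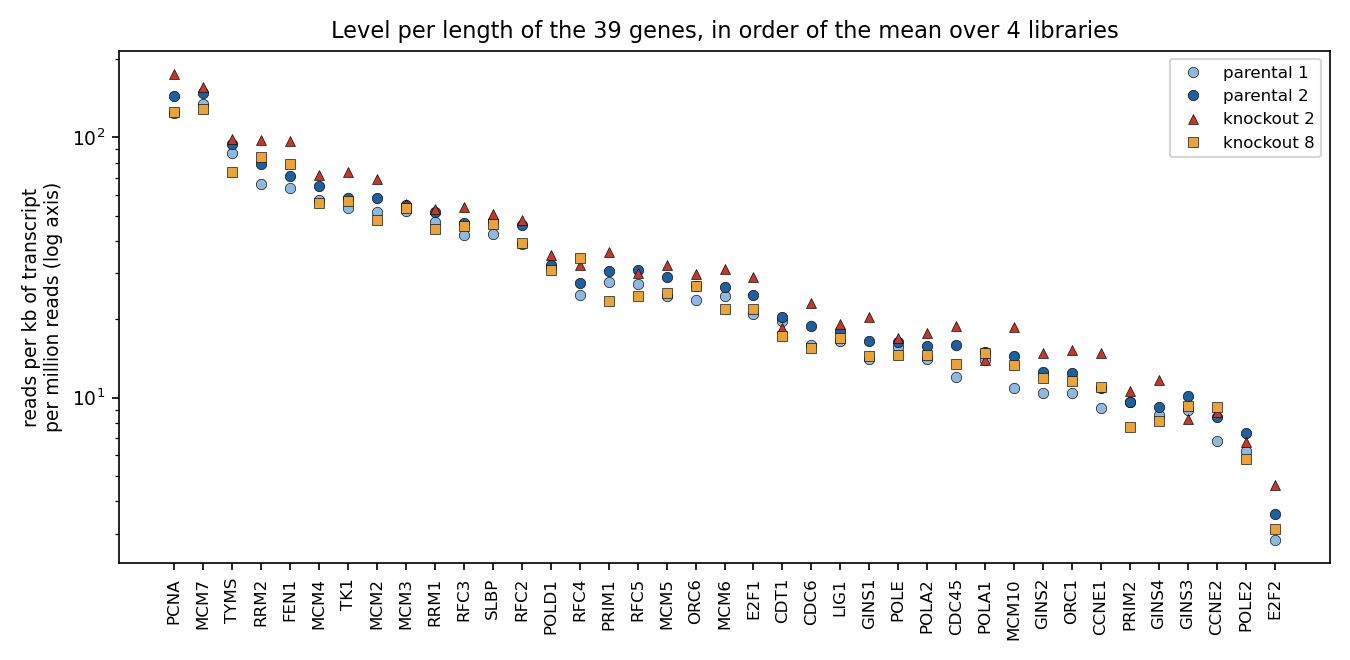
Level per transcript length (RPKM, log axis) of the 39 genes in each of the 4 libraries, ordered by their mean. Levels run from 3.54 for E2F2 to 142 for PCNA, and the spread between libraries within a gene is small beside the differences between genes.

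Position and counting bear on some of these values. The nearest genes of each of the 39 (40 for most, 23 to 37 for TYMS, POLE, CDC45 and SLBP) had median log2 differences from the parental mean within 0.141 of 0 in either knockout library, the largest being that beside RRM2. Exons of CCNE2 (chr8:94879770-94896678, minus strand) are overlapped over 37.1% of their length by INTS8 on the opposite strand, and those of TYMS over 46.6% by ENOSF1 and TYMSOS. INTS8 was at 2254 and 2246 in the parental and 1910 and 1964 in the knockout libraries, the reverse direction of CCNE2. ENOSF1 was at 1196 and 1076 against 838 and 1016. The library kit marks strand but the counting setting is not given in the sources used here, so CCNE2 and TYMS are uncertain. MCM7 (8.94%, with AP4M1) and RFC5 (5.73%) overlap an opposite gene over less of their length. FEN1 (8.68%) and PRIM1 (6.77%) each overlap both an opposite gene and a gene on the same strand. PCNA and RRM2 have 3 annotated pseudogenes each, TYMS has 2, and RFC3, RFC5 and FEN1 have 1, and reads shared with such copies could shift their counts.

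Other lists of the pathway had medians nearer to 0 in knockout library 2 than the 0.27 of the 39 genes; differences between the lists were not tested. Of 37 further replication genes, such as the single-strand binding protein RPA and the origin kinase CDC7, the medians were 0.14 in knockout library 2 and -0.10 in knockout library 8. Groups did not overlap for 4 above and 5 below (24.3%, against 46.4% of all genes), and 0 were called by limma or DESeq2. In the 23 genes of nucleotide supply the medians were 0.05 and -0.03, with 12 genes above and 11 below the parental mean in knockout library 2. At an unadjusted limma p under 0.05, which 12.0% of all genes reached, 2 were higher and 3 lower, and 0 were called. The 23 tested genes of G1/S control, among them cyclin D, CDK and RB genes, had 0.17 and -0.04, with 1 higher at that unadjusted p, RB1. The 11 genes of the DREAM complex had 0.10 and -0.02, with 0 at that unadjusted p.

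Mitotic genes, which peak after replication, showed the widest knockout gap of these lists. All 14 were higher in knockout library 2 than in knockout library 8, with a median gap of 0.44 against 0.32 for the 39 replication genes, and all 14 were higher in parental library 2 than in parental library 1. Their medians from the parental mean were 0.21 and -0.21. Between groups, 0 of the 14 were non-overlapping (46.4% of all genes), and 0 were called by limma (0.0%) or DESeq2 (2.44%). Within both pairs these mitotic genes had the same sign of difference as most of the replication genes; a difference between the lists was not tested.

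**Figure D4:**
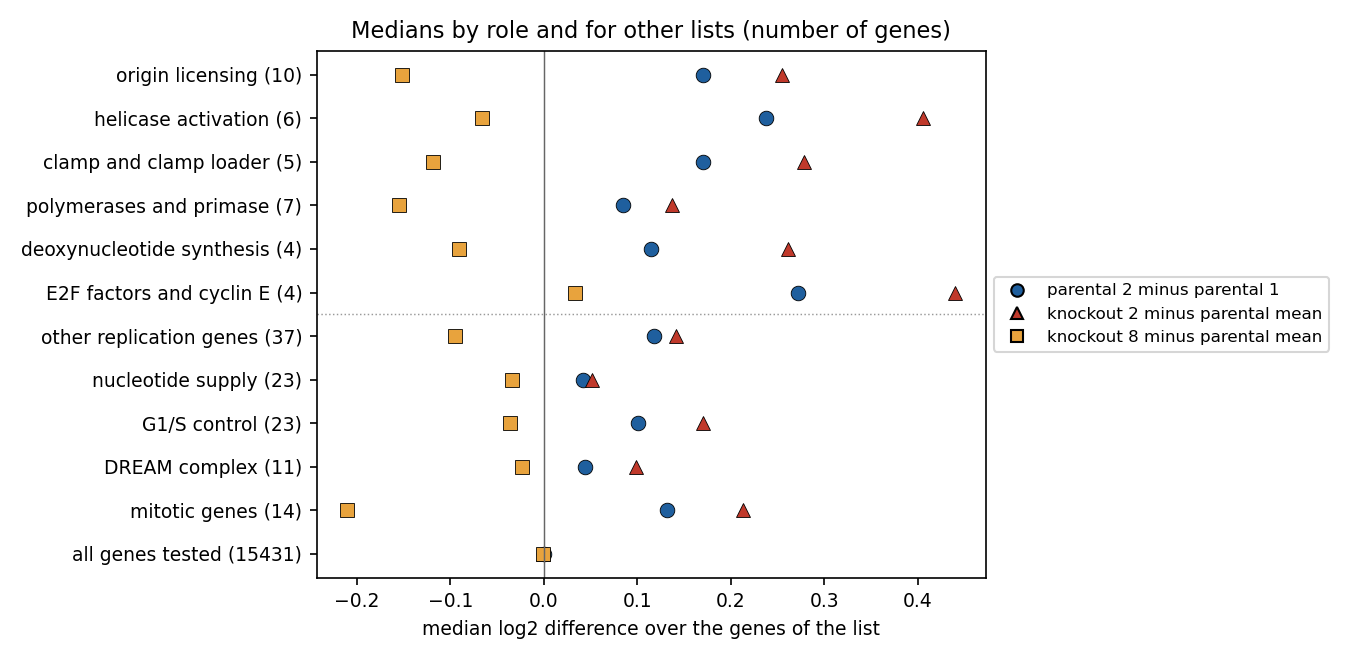
Median log2 difference over the genes of each role and each further list, for parental library 2 minus parental library 1 and for each knockout library against the parental mean. All roles of the 39 genes lie right of 0 in knockout library 2, from 0.14 for polymerases and primase to 0.44 for E2F factors and cyclin E. All genes tested lie at 0.00, near which the size factors place them. Roles with fewer than 4 genes are not drawn.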

How the data were processed

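RNA was sequenced from 4 libraries. The deposited table holds a normalised signal per gene and library: read counts that the authors divided by 1 size factor per library, as the values show. The submitters' processing notes name HTSeq, STAR, DESeq2, deepTools and Picard with build hg38; for versions, annotation, strand setting and multi-mapping rule, nothing is given in the sources used here. Dividing by each library's step gave whole reads within 0.001 for all values; the factors (0.912, 1.14, 0.950 and 1.02) equalled median-of-ratios factors, which rest on most genes being unchanged. 0 columns belonged to no sample.

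The test was limma 3.58.1 (R 4.3.3) with a trend on log2(normalised count + 1) over 15431 genes with at least 10 in at least 2 libraries, Benjamini-Hochberg threshold 0.05; this scale understates changes of weakly expressed genes. Alternatives on the recovered reads were edgeR 4.0.16, DESeq2 1.42.0 (16330 genes with an adjusted p) and limma-voom; others were a pseudocount of 0.1, no filter, at least 1 CPM in 2 libraries, 3 scalings and leaving out each library. Both pairs differed beyond sampling noise, so no library was a copy. An exact permutation test of a gene cannot give a p below 0.333 here, so none was used. Fits were run on simulated counts with the same spread setting for all genes and both groups. The spread of the real pairs was unequal, so that check does not cover it.

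The 39 genes and the further lists were chosen with earlier results of these data known. Named genes were the 39, CDKN1A, RRM2B and DESeq2-called genes of the further lists, whatever their result; MITF, among the melanocytic markers, was the only such call (DESeq2 adjusted p = 0.00272). INTS8, ENOSF1, AP4M1 and RB1 were named after values were seen. Values of the edited gene are not reported here.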

Additional observations from a re-analysis of the deposited data

How the results depend on the processing

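Calls of genes ranged from 0 to 5023 over all genes and from 0 to 21 over the 39 genes when each library was left out in turn; without either parental library 0 were called. DESeq2 called 398 genes, while edgeR, limma-voom, the other pseudocount and both other filters called 0, and no setting with all 4 libraries called any of the 39 genes. Genes above 0 numbered 28, and 12 to 36 with a library left out; the median difference of 0.09 went from -0.07 to 0.27. TMM, upper quartile and total count scaling moved the medians of either knockout library and of the parental gap by less than the spread between libraries (SD 0.191) and the median of all genes by less than 0.1. Differences near 0 changed sign: MCM7 was 0.0041 by edgeR, 0.0038 by DESeq2, 0.0053 with upper quartile and 0.011 with total count scaling, PRIM1 was 0.017 by edgeR and 0.017 by DESeq2, and CDKN1A 0.0095 by edgeR and 0.0095 by DESeq2. With a library left out, these log2 differences changed sign over the ranges MCM2 -0.21 to 0.33, MCM3 -0.025 to 0.051, MCM4 -0.15 to 0.22, MCM5 -0.10 to 0.27, MCM6 -0.24 to 0.28, MCM7 -0.15 to 0.15, CDC6 -0.19 to 0.41, CDC45 -0.063 to 0.45, GINS1 -0.093 to 0.42, GINS4 -0.16 to 0.39, ORC1 -0.00013 to 0.41, PCNA -0.12 to 0.39, RFC2 -0.14 to 0.19, RFC5 -0.27 to 0.038, POLA1 -0.057 to 0.028, POLA2 -0.056 to 0.26, POLD1 -0.074 to 0.14, POLE -0.16 to 0.082, POLE2 -0.25 to 0.0015, PRIM1 -0.34 to 0.31, PRIM2 -0.34 to 0.14, RRM1 -0.18 to 0.097, TYMS -0.33 to 0.12, E2F1 -0.078 to 0.35, E2F2 -0.048 to 0.53, LIG1 -0.055 to 0.16 and CDKN1A -0.52 to 0.40. The cause was not tested. No paired analysis was possible because the knockout columns carry the numbers 2 and 8, so the groups share fewer than 2 replicate numbers. Each of the 39 genes had 323 reads or more in every library. The part of depth in the spread of the weakest genes was not tested.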
